A study of Mus musculus with 17 samples.

Results

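The 7 genes Col4a1, Col4a2, Col4a3, Col4a4, Lamb2, Lama5 and Itga3 encode components of the glomerular basement membrane and a receptor that attaches podocytes to it. WT1 binding near them was described from ChIP-seq peaks, which are stretches of the genome where fragments pulled down with an antibody pile up above background. A peak was counted when its summit, the point of highest pile-up, lay in 1 of 5 windows of the mouse genome (build mm9). The windows were 82420000 to 82750000 on chromosome 1 for Col4a3 with Col4a4, 11150000 to 11500000 on chromosome 8 for Col4a1 with Col4a2, 108340000 to 108440000 on chromosome 9 for Lamb2, 179870000 to 180000000 on chromosome 2 for Lama5, and 94870000 to 94980000 on chromosome 11 for Itga3. They held 204 of the 107761 deposited peaks. Where peaks of different lists overlapped by at least 1 bp they were merged into 1 region, here called a site and numbered along its window, which gave 84 of the 41770 sites of the series.

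The series profiled WT1 in mice injured with ADR (adriamycin, also called doxorubicin, an anthracycline toxic to podocytes) and in mice given PBS, the saline vehicle. Glomeruli isolated from BALB/cJ mice gave 4 libraries after ADR and 4 after PBS. Podocytes purified from mT/mG reporter mice gave 3 libraries after PBS, 2 at day 9 and 2 at day 14 after ADR, although the protocol mentions 3 experiments. The labels call every animal wildtype and 7 to 8 weeks old, and they give no day for the glomeruli or for the PBS podocytes. In the reporter mice Cre recombinase marks the podocytes, so the cells collected were those with Cre activity. Each glomerular immunoprecipitation drew on 2 kidneys, and glomeruli also hold endothelial and mesangial cells. Strain and preparation differ together between the glomerular and podocyte groups. The label of a tissue could not be checked against expression markers, since the files hold binding only.

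WT1 is a transcription factor with zinc fingers, and mature podocytes depend on it. The glomerular basement membrane lies between the podocytes and the capillary endothelium and is part of the kidney filter. Its mature collagen network is built from the chains of Col4a3 and Col4a4 with that of Col4a5, and human mutations in these genes cause Alport syndrome. The chains of Col4a1 and Col4a2 form the network found in most basement membranes, which in the glomerulus is prominent early in development and in the mesangial matrix. Lama5 and Lamb2 encode the alpha and beta chains of the laminin of the mature membrane, and loss of LAMB2 causes Pierson syndrome in humans. Itga3 encodes the alpha subunit of the integrin with which podocytes hold on to laminin.

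RefSeq promoter windows, each of 250 bases before and 50 after a gene start in build GRCm38.p6, were at hand for 6 of the 7 genes, with 7 windows in all because Itga3 had a pair. Their positions are on another build than the peaks and were not set against them. Both strands were searched for GCGGGGGCG and GCGTGGGCG, the motif forms shared by the EGR and WT1 zinc fingers, and for GTGGGAG. None of the 7 windows held any of these letters, which 2.91%, 0.612% and 9.73% of all 32851 windows held. Looser forms added after this result gave a match in a pair of genes. GNGTGGGNG, held by 14.3% of all windows, was in the Col4a4 promoter, and GNGGGGGNG, held by 18.8%, was in the Lama5 promoter. The matched stretch of each is shown in capitals, with the first Itga3 promoter, which held no match, beside them for comparison. All 3 genes lie on the minus strand and the sequences are written 5′ to 3′ along the gene.
Col4a4, chr1:82586850-82586920, the last 71 bases before its start: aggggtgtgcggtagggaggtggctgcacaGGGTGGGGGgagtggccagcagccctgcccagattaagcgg
Lama5, chr2:180225860-180226109, the 250 bases before its start, where the match is on the other strand: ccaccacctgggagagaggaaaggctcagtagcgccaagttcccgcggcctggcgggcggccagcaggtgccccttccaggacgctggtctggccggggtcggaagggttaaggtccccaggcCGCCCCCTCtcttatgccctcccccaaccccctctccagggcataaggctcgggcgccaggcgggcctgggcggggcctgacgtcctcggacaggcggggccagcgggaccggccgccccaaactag
Itga3, chr11:95076715-95076964, the 250 bases before its start: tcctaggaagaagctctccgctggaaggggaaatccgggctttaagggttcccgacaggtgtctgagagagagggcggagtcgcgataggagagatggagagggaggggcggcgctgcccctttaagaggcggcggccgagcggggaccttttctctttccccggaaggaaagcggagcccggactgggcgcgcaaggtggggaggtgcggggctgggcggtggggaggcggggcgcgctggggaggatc

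The promoters differed in base composition. GC content was 74.0% for Col4a1, 73.7% for Col4a2, 72.7% for Lama5, 63.3% for Col4a4, 66.7% and 52.3% for the windows of Itga3 and 44.0% for Lamb2, against a median of 52.7% over all windows. Col4a1 and Col4a2 are transcribed away from each other from neighbouring starts, and the last 78 bases of their windows are the reverse complement of one another. A motif match describes letters and not a bound site.

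A single list of peaks stands for each group, so no difference between groups has a replicate error and none was tested. The glomerular lists held 16634 peaks with ADR and 29082 with PBS, and the podocyte lists 23402 with PBS, 31949 at day 9 and 6694 at day 14. Fold enrichment, the pile-up at the summit over the local background, is the authors' value for each peak. It is set side by side here and not compared between lists. To place a peak, its percentile of fold enrichment within its own list is given, where 100 is the strongest. Percentiles of lists that differ in length show no change between groups.

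WT1 peaks were found in every window in every list. The windows held 45 peaks in ADR glomeruli and 52 in PBS glomeruli, and in podocytes 41 with PBS, 54 at day 9 and 12 at day 14. As a share of its list this was 0.271% in ADR glomeruli, where it was highest, 0.179% in PBS glomeruli, and in podocytes 0.175% with PBS, 0.169% at day 9 and 0.179% at day 14. Their median percentile was 47.5 in ADR glomeruli, 53.1 in PBS glomeruli, and in podocytes 51.5 with PBS, 44.2 at day 9 and 67.8 at day 14, so that outside day 14 the peaks near these genes were of middling strength. In the top decile of their list were 4 peaks of ADR glomeruli (8.89%), 7 of PBS glomeruli (13.5%) and 4 of PBS podocytes (9.76%). At day 9 there were 7 (13.0%) and at day 14 there was 1 (8.33%). These shares were near that of a decile of any list.

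**Figure D1:**
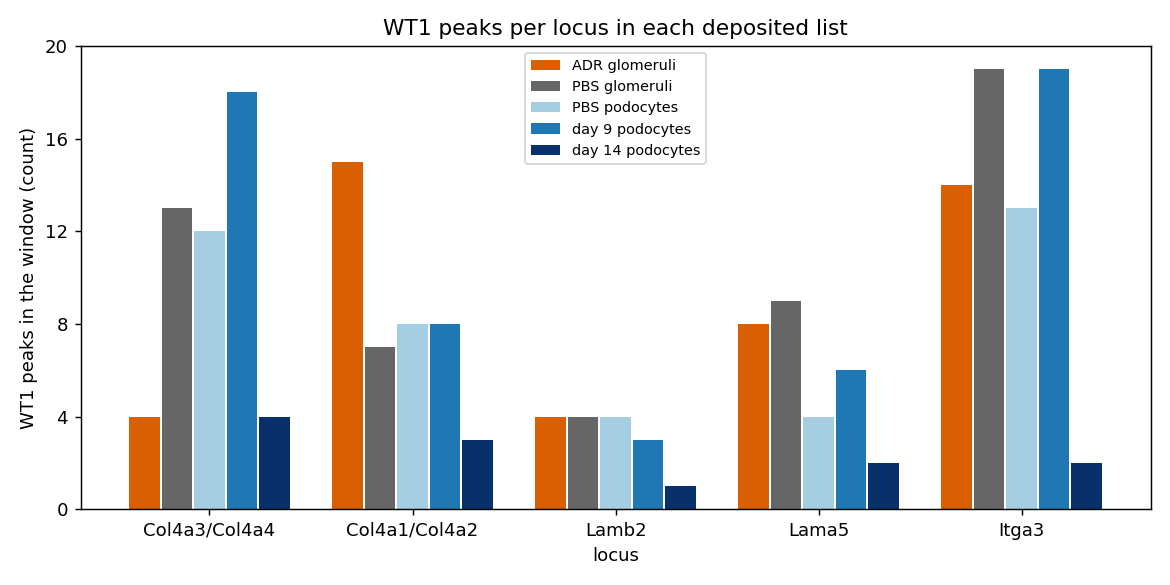
Number of WT1 peaks (vertical axis) in each gene window (horizontal axis) in each of the 5 lists (bars, 1 value each, no replicates). The Col4a3/Col4a4 window had 4 peaks in ADR and 13 in PBS glomeruli, while the Col4a1/Col4a2 window had 15 and 7.

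Of the 84 sites, 12 had a peak in all 5 lists, which is 14.3% against 11.2% of all sites of the series. These were 4 sites at Col4a3/Col4a4, 3 at Col4a1/Col4a2, 2 at Lama5, 2 at Itga3 and 1 at Lamb2. Each of the 12 day 14 peaks lay at 1 of them. The day 14 list was the shortest, and the series had 4666 sites with a peak in all 5 lists beside its 6694 peaks. Summits from the 5 lists lay close together at the 12 sites near these genes. The median spread was 51 bp, the smallest 12 bp and the largest 223 bp, and the median over all 4666 such sites was also 51 bp. A further 37 sites (44.0%, against 34.5% of all sites) had a peak in 1 list only.

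In glomeruli, peaks were fewer with ADR at the mature collagen pair, as they were over the whole lists, and more at the other collagen pair. The Col4a3/Col4a4 window had 4 peaks in ADR and 13 in PBS glomeruli, a ratio of 0.308, where the whole lists stood at 0.572. The Col4a1/Col4a2 window had 15 in ADR and 7 in PBS glomeruli, a ratio of 2.14. Lamb2 had 4 and 4, Lama5 had 8 and 9, and Itga3 had 14 and 19 in ADR and PBS glomeruli. Trimmed by caller p-value to the number of peaks in the shorter list, both lists held 16634 peaks. The ratio was then 2 at Lama5, 1.27 at Itga3, 0.571 at Col4a3/Col4a4 and 3 at Col4a1/Col4a2. ADR glomeruli thus had the larger count at Lama5 and Itga3 after trimming. Untrimmed, the ratios there were 0.889 and 0.737, already above the 0.572 of the whole lists. The caller's q is its p-value adjusted for multiple testing. Among peaks with a −log10 q of at least 10, the ratio was 1.2 at Col4a1/Col4a2 and 0.25 at Lama5. The whole lists then held 7087 ADR and 16265 PBS peaks. Glomeruli with fewer podocytes and less WT1 bound per podocyte cannot be told apart in this tissue.

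Overlap between the glomerular lists also differed from window to window. A PBS peak was present at 29 of the 45 ADR peaks (64.4%, 95% Wilson interval 49.8 to 76.8), against 82.6% over the whole ADR list. An ADR peak was present at 28 of the 52 PBS peaks (53.8%, 40.5 to 66.7), against 46.5% over the whole PBS list. At Col4a3/Col4a4 all 4 ADR peaks had a PBS peak. Of its 13 PBS peaks, 4 had an ADR peak (30.8%, 12.7 to 57.6), an interval that includes the 46.5% of the whole list. At Col4a1/Col4a2, 6 of 15 ADR peaks and 6 of 7 PBS peaks had a peak in the other list. Without that window, a split chosen after seeing the data, 23 of 30 ADR peaks (76.7%, 59.1 to 88.2) had a PBS peak. The intervals cover the counting of peaks only, and with both lists trimmed to equal length the shares were 48.9% of ADR and 70% of PBS peaks, against 61.1% and 59.7% over the trimmed lists.

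Sites with a peak in ADR glomeruli and in no other list made up 14 of the 84, or 16.7%, against 3.37% of all sites. They were 8 at Col4a1/Col4a2, 3 at Itga3, 2 at Lama5 and 1 at Lamb2, with none at Col4a3/Col4a4. Their median fold enrichment was 6.49, against 7.26 over the ADR glomerular list. Of the 14, 3 reached a −log10 q of 10, against 7087 of the 16634 peaks of that list. Sites of PBS glomeruli alone numbered 8 (9.52%, against 11.0% of all sites), those of PBS podocytes alone 5 (5.95%, against 3.91%) and those of day 9 podocytes alone 10 (11.9%, against 16.1%). In the same order, 0, 0 and 5 of these single-list sites reached a −log10 q of 10.

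In podocytes, PBS peaks were mostly present at day 9, and more peaks were found at day 9 at 3 of the 5 windows. Day 9 had 54 peaks and PBS podocytes 41, a ratio of 1.32 beside 1.37 for the whole lists. A PBS peak was present at 34 of the 54 day 9 peaks (63.0%, 49.6 to 74.6), against 64.0% over the whole list. A day 9 peak was present at 35 of the 41 PBS peaks (85.4%, 71.6 to 93.1), against 87.0%. Both shares were thus near their background. By window, day 9 and PBS podocytes had 18 and 12 peaks at Col4a3/Col4a4, 8 and 8 at Col4a1/Col4a2, 3 and 4 at Lamb2, 6 and 4 at Lama5, and 19 and 13 at Itga3.

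At day 14 the windows held 0.293 times the PBS number of peaks and 0.222 times the day 9 number, beside 0.286 and 0.210 for the whole lists. All 12 day 14 peaks (interval 75.8 to 100) overlapped a PBS podocyte peak and a day 9 peak, against 96.1% and 99.7% of the whole list. In the other direction 12 of 41 PBS peaks (29.3%, 17.6 to 44.5) and 12 of 54 day 9 peaks (22.2%, 13.2 to 34.9) overlapped a day 14 peak, against 27.0% and 20.5%. The PBS podocyte peaks with a day 14 peak had a median percentile of 87.4 (59.7 to 97.6), and the 29 without one had a median of 30.5 (0.795 to 85.7). Over the whole PBS podocyte list these medians were 84.8 and 37.2, the same order as at the 7 genes. With each longer list trimmed to the day 14 length by caller p-value, the shares were 71.4% of PBS and 73.3% of day 9 peaks, against 71.2% and 77.4% over the trimmed lists.

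PBS podocytes and PBS glomeruli shared most of these peaks. A glomerular peak was present at 31 of the 41 podocyte peaks (75.6%, 60.7 to 86.2), against 80.7% over the list. A podocyte peak was present at 32 of the 52 glomerular peaks (61.5%, 48.0 to 73.5), against 66.4%. All podocyte peaks at Lamb2 and Lama5 had a glomerular peak. Among the 10 without one, the strongest was at 82605170 to 82605761 in the Col4a3/Col4a4 window, with 5.96-fold enrichment.

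**Figure D2:**
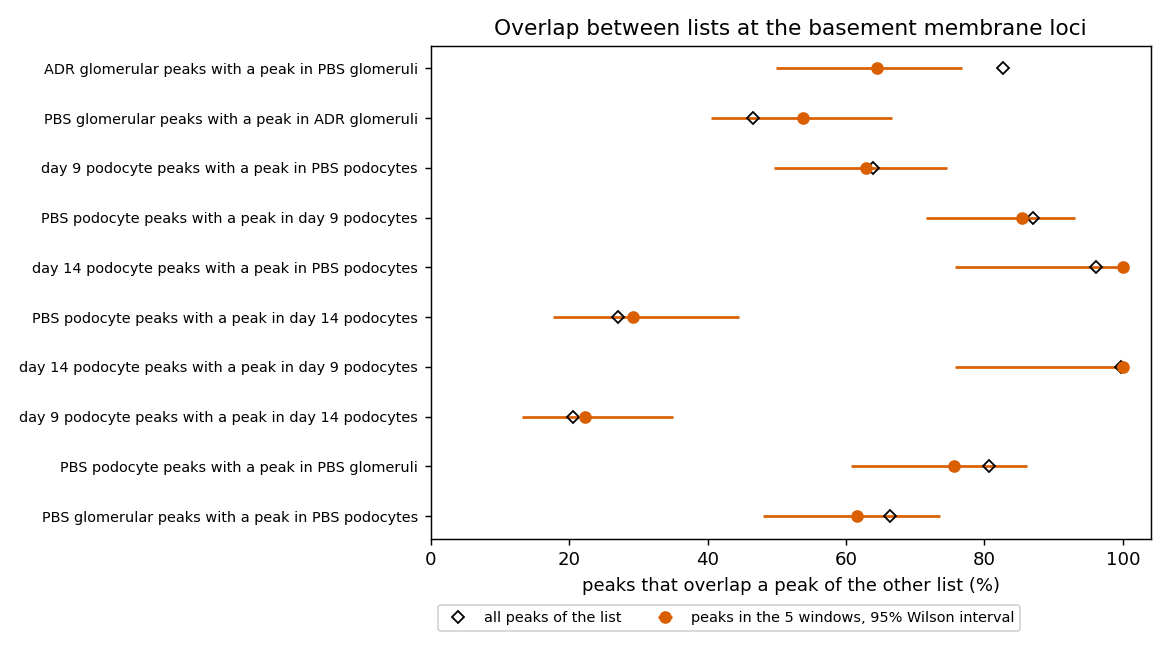
Share of the peaks near the 7 genes (percent, horizontal axis) that overlap a peak of the other list, for each direction of the 5 comparisons (rows), with 95% Wilson intervals that cover the counting of peaks, beside the same share for the whole list. ADR glomerular peaks with a PBS peak lie at 64.4% against 82.6%, and the intervals of the other rows include the whole-list value.

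The Col4a3/Col4a4 window held 21 sites, 4 of them common to all lists and spread over 90.3 kb. In GRCm38 the gene order there is Rhbdd1, Col4a4, Col4a3, Mff, and the collagen genes start next to each other on opposite strands. No peak could be placed against a gene start, an exon or an intron, since no mm9 annotation was at hand. The same holds for the other windows.

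Site 13, at 82599166 to 82600524, carried the strongest WT1 peak of the window in 4 lists. By fold enrichment it was also the strongest of all 5 windows in the 3 podocyte lists. Its fold enrichment was 11.4 in ADR glomeruli and 14.7 in PBS glomeruli, and in podocytes 31.9 with PBS, 66.2 at day 9 and 16.7 at day 14. It stood at percentile 97.6 of PBS podocytes, percentile 99.4 at day 9 and percentile 94.4 at day 14. In PBS glomeruli it consisted of a pair of peaks.

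Site 9, at 82583185 to 82583957, was the strongest peak near these genes in PBS glomeruli. Its fold enrichment was 8.88 in ADR glomeruli and 24.8 in PBS glomeruli, and in podocytes 8.07 with PBS, 11.7 at day 9 and 3.33 at day 14. It was at percentile 65.7 of ADR glomeruli and percentile 97.7 of PBS glomeruli. In podocytes it was at percentile 64.8 with PBS, 75.2 at day 9 and 4.19 at day 14, near the bottom of that list by fold enrichment. The −log10 q of this day 14 peak was 11.3, and 4386 of the 6694 day 14 peaks reached 10.

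Site 4, at 82540814 to 82541409, had 5.58-fold enrichment in ADR glomeruli and 9.64 in PBS glomeruli, and in podocytes 9.50 with PBS, 28.5 at day 9 and 9.70 at day 14. It was high at day 9, at percentile 94.2, and at percentile 23.9 in ADR glomeruli. Site 18, at 82631110 to 82631950, was weaker, with 7.83-fold enrichment in ADR glomeruli and 10.7 in PBS glomeruli, and in podocytes 7.36 with PBS, 7.48 at day 9 and 4.95 at day 14.

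All 4 ADR glomerular peaks of the Col4a3/Col4a4 window were at these common sites. The 8 further sites with a PBS glomerular peak had none with ADR, and 7 of the 8 had a podocyte peak. The strongest was site 21, at 82734659 to 82735082 in PBS glomeruli, with 16.3-fold enrichment at percentile 88.2. At day 9 it had 11.2-fold enrichment, and neither PBS nor day 14 podocytes had a peak there. Site 3, whose PBS glomerular peak at 82535258 to 82535563 had 13.4-fold enrichment, was present with 9.19 at day 9 and 7.71 in PBS podocytes. Of the 21 sites of this 330 kb window, 5 were of day 9 alone, at 4.04 to 6.51-fold enrichment, beside 16.1% of all sites. The other 4 windows, 100 to 350 kb long, each had fewer. Of the 5, 1 reached a −log10 q of 10.

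The Col4a1/Col4a2 window also held 21 sites, and its 3 common sites stood far apart, over 342 kb. In GRCm38 the order is Irs2, Col4a1, Col4a2, Rab20. Site 4, at 11203080 to 11203803, was the strongest of the window in 4 lists. Its fold enrichment was 15.1 in ADR glomeruli and 19.9 in PBS glomeruli, and in podocytes 22.7 with PBS, 34.4 at day 9 and 8.42 at day 14. It was at or above percentile 89.1 in each list but day 14, where it was at percentile 71.9.

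Site 1, at 11155384 to 11156526, had 10.3-fold enrichment in ADR glomeruli and 19.5 in PBS glomeruli, and in podocytes 10.1 with PBS, 31.0 at day 9 and 6.49 at day 14. It was at percentile 95 of the day 9 list and at percentile 74.9 of the PBS podocyte list. Site 21, at 11497277 to 11498032, lay 2.35 kb inside the end of the window. It led the window in ADR glomeruli, with 18.5-fold enrichment, and had 11.7 in PBS glomeruli, and in podocytes 11.4 with PBS, 10.7 at day 9 and 3.04 at day 14. It was the strongest of all ADR glomerular peaks in the 5 windows, at percentile 93.6, and at day 14 it was at percentile 2.08.

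The 8 sites found in ADR glomeruli alone lay between 11259792 and 11393363, in the stretch between the common sites. Their fold enrichment ran from 4.04 to 11.5 with a median of 6.17, their widths from 183 to 365 bp, and 2 of the 8 had a −log10 q of at least 10. The strongest was at 11259792 to 11260156, at percentile 79.8. At that stricter q in both lists the window had 6 peaks in ADR and 5 in PBS glomeruli, a ratio of 1.2. In number, most of the surplus in ADR glomeruli thus lay below that q. Over the whole lists 7087 of 16634 ADR and 16265 of 29082 PBS glomerular peaks reached it. The window therefore still had more ADR than PBS peaks where the whole lists had fewer. A ninth ADR peak without a PBS glomerular peak, at 11476674 to 11476996 with 9.57-fold enrichment, had a peak of 6.15 at day 9 and 5.66 in PBS podocytes. The PBS glomerular peak without an ADR peak was at 11220725 to 11221028, with 9.43-fold enrichment.

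**Figure D3:**
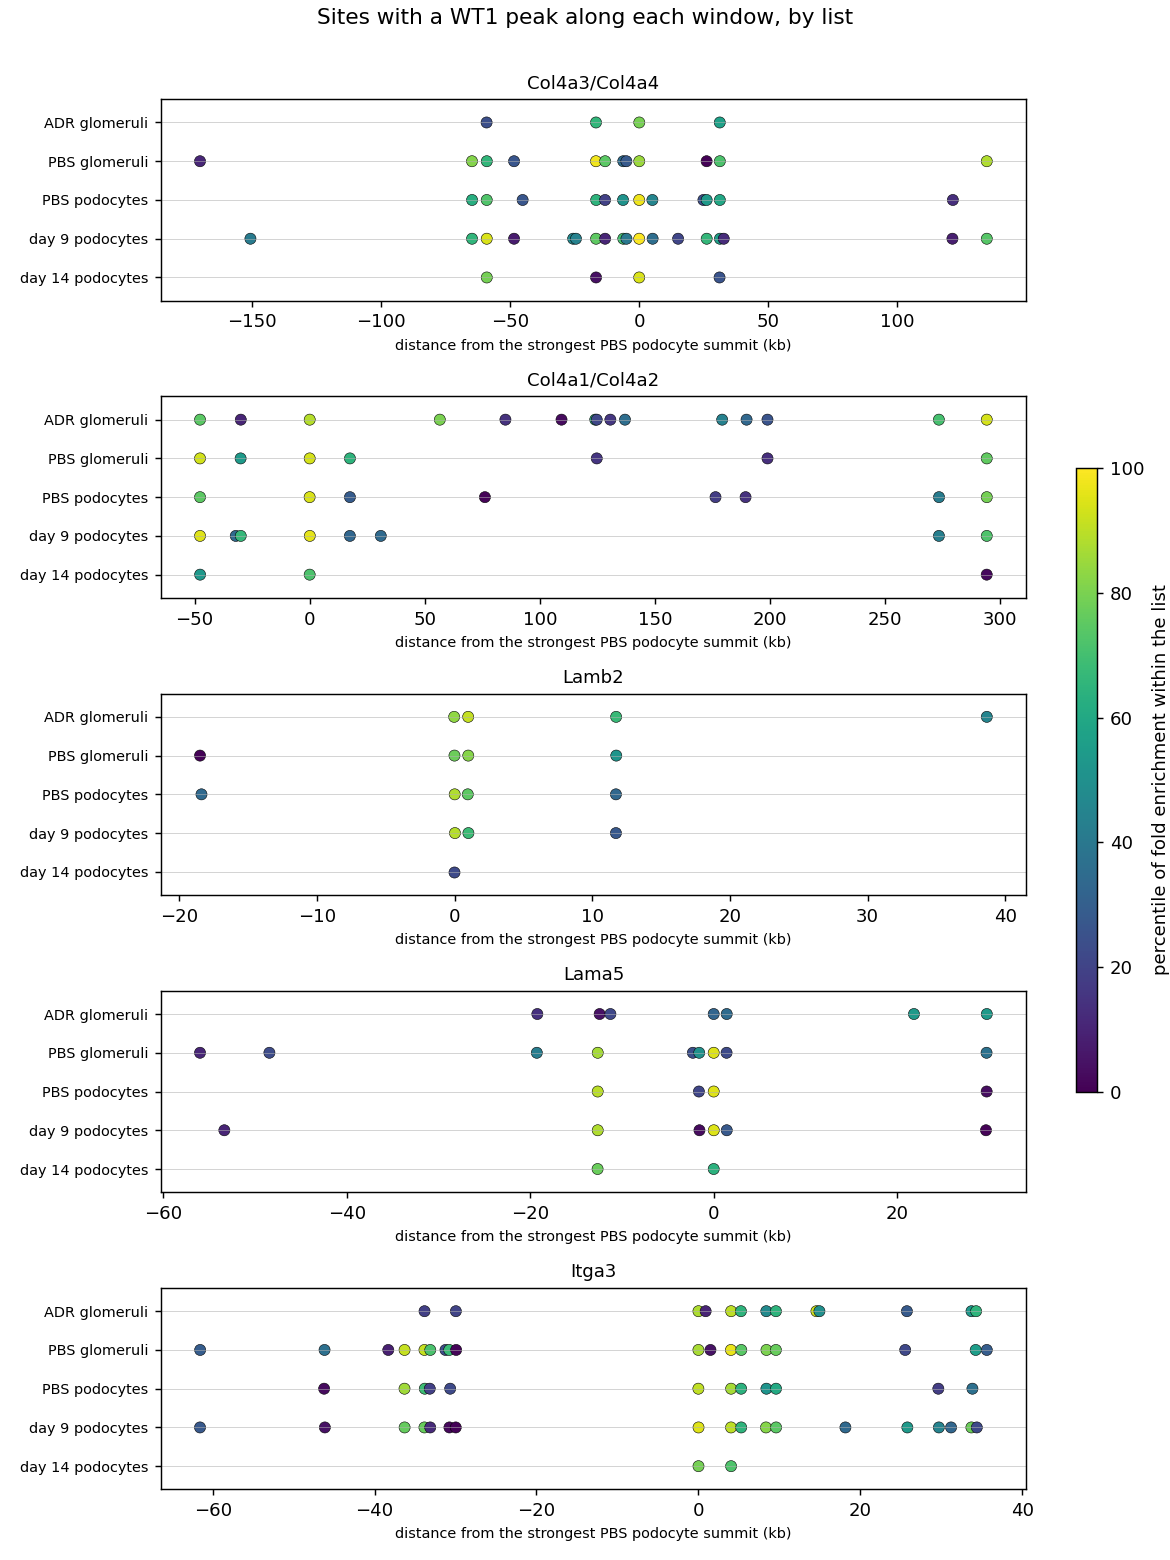
Sites along each gene window (horizontal axis, distance in kb from the strongest PBS podocyte summit of the window), with 1 row per list. A dot marks a site where the list has a peak, shaded by the percentile of its fold enrichment within the list. The middle of the Col4a1/Col4a2 window has dots in the ADR glomerular row without a counterpart in the other rows, and the day 14 row has dots at 12 sites, each with a dot in all rows.

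The Lamb2 window held 5 sites, the fewest. In GRCm38 Lamb2 lies between Ccdc71 and Usp19 among closely spaced genes. Site 2, at 108380912 to 108381597, was common to all lists. It had 12.5-fold enrichment in ADR glomeruli and 12.3 in PBS glomeruli, and in podocytes 15.7 with PBS, 20.1 at day 9 and 4.76 at day 14. It led the window in the podocyte lists, and its day 14 peak was weak, at percentile 22.3.

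Site 3, whose peak in ADR glomeruli was at 108382099 to 108382576, led the Lamb2 window in glomeruli. It had 16.4-fold enrichment in ADR glomeruli and 13.6 in PBS glomeruli, and 9.72 at day 9 and 10.1 in PBS podocytes, but no peak at day 14. The ADR peak was at percentile 91.2 and the PBS glomerular peak at percentile 81.8. Site 4 had 9.08-fold enrichment in ADR glomeruli and 7.71 in PBS glomeruli, and 4.97 at day 9 and 5.14 in PBS podocytes. The remaining sites were weak, with a peak of 6.91-fold enrichment in ADR glomeruli alone and a peak in PBS podocytes (5.19) and PBS glomeruli (3.15) at the other. With the stricter q, Lamb2 had 3 peaks in ADR and 3 in PBS glomeruli.

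The Lama5 window held 12 sites, and both of its common sites were weak in ADR glomeruli and strong in the PBS lists and at day 9. In GRCm38 Lama5 lies between Adrm1 and Rps21. Site 9, at 179961714 to 179962760, had 6.05-fold enrichment in ADR glomeruli and 20.9 in PBS glomeruli, and in podocytes 24.6 with PBS, 29.9 at day 9 and 7.50 at day 14. It was at percentile 32.4 of ADR glomeruli and percentile 94.7 of PBS glomeruli, and it was the leading Lama5 peak in PBS glomeruli, PBS podocytes and day 9.

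Site 5, at 179949085 to 179949922, held a pair of weak peaks in ADR glomeruli, the stronger with 4.24-fold enrichment at percentile 4.39 and a −log10 q of 2.10. It had 15.4-fold enrichment in PBS glomeruli, and in podocytes 16.8 with PBS, 19.3 at day 9 and 9.35 at day 14. It led the Lama5 window at day 14. The strongest Lama5 peak of ADR glomeruli was instead at 179991691 to 179992050, with 7.59-fold enrichment, where PBS glomeruli had 6.33.

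The 8 ADR and 9 PBS glomerular peaks at Lama5 were near each other in number. Of the ADR peaks, 1 had a −log10 q of at least 10, against 4 of the PBS peaks. Over the whole lists 7087 of 16634 ADR and 16265 of 29082 PBS peaks did. Both ADR peaks without a PBS glomerular peak were in no other list either, and the stronger was at 179983800 to 179984082 with 7.56-fold enrichment. PBS glomeruli had 4 peaks without an ADR peak, the strongest at 179960309 to 179960714 with 7.53-fold enrichment.

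The Itga3 window held 25 sites, the most, with 14 peaks in ADR glomeruli and 19 in PBS glomeruli, and in podocytes 13 with PBS, 19 at day 9 and 2 at day 14. In GRCm38 Itga3 lies between Pdk2 and Dlx3. The common sites lay 4.04 kb apart. Site 10, at 94932465 to 94933107, had 14.3-fold enrichment in ADR glomeruli and 15.7 in PBS glomeruli, and in podocytes 17.5 with PBS, 30.9 at day 9 and 9.72 at day 14. Site 13, at 94936434 to 94937092, had 15.7-fold enrichment in ADR glomeruli and 23.2 in PBS glomeruli, and in podocytes 14.7 with PBS, 21.5 at day 9 and 8.44 at day 14. Both were strong in every list, between percentiles 71.9 and 96.7, and both had a peak at day 14.

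The strongest Itga3 peak of ADR glomeruli was at neither of them. It was at 94947126 to 94947487, with 17.3-fold enrichment at percentile 92.3, and no other list had a peak there. It was also the strongest of the 14 sites found in ADR glomeruli alone, and its −log10 q was 35.4. In the other direction, a PBS glomerular peak at 94896141 to 94896787 had 18.0-fold enrichment at percentile 91.2 and no ADR peak. Day 9 podocytes had 12.1-fold and PBS podocytes 14.2-fold enrichment at this site, with none at day 14, so it was the strongest PBS podocyte peak of the 5 windows that had no day 14 peak.

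Close to it, site 5 had an ADR peak of 5.29-fold enrichment at 94898752 to 94898999 and a PBS glomerular peak of 18.1 at 94898552 to 94899131. The podocyte values there were 12.3 at day 9 and 8.68 with PBS. Among day 9 peaks of the Itga3 window that had none at day 14, the strongest was at 94940370 to 94941372, with 14.6-fold enrichment. Every PBS podocyte peak at Itga3 had a day 9 peak.

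The 12 common sites allow a ranking over the same set in each list. Each was placed among the 4666 sites with a peak in all 5 lists, by percentile of fold enrichment, and steps of at least 40 points between lists were singled out, a size chosen after the values were seen. Between ADR and PBS glomeruli, 3 of the 12 were lower by that much with ADR (13.2% of all 4666) and 1 was higher (11.9%). Lama5 site 9 stood at 11.8 in ADR and 74.6 in PBS glomeruli, Col4a3/Col4a4 site 9 at 34.8 and 88.1, and Lama5 site 5 at 1.63 and 49.0. Col4a1/Col4a2 site 21 stood at 80.3 in ADR and 27.4 in PBS glomeruli. The same 4 sites made such steps in the same direction when ranked by caller p-value, with −51.8, −41.1, −42.4 and 52.3 points in the order given.

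Podocytes showed fewer such steps. At day 9, 2 of the 12 were higher than with PBS by at least 40 points (4.14% of all) and 0 lower (0.943%). Col4a3/Col4a4 site 4 stood at 68.3 at day 9 and 22.3 with PBS, and Col4a1/Col4a2 site 1 at 72.2 and 26.3. At day 14, 1 of the 12 was higher than with PBS (3.69%) and 0 lower (1.35%). The higher was again Col4a3/Col4a4 site 4, at 73.8 and 22.3. Ranked by caller p-value, that site's step was 32.1 points at day 9, short of 40, and 47.2 at day 14. By that ranking 1 of the 12 was lower at day 14 than with PBS, Col4a1/Col4a2 site 21, with −44.7 points, where fold enrichment gave −31.7. Between day 14 and day 9 none of the 12 moved that far in either direction (0.922% lower and 0.75% higher over all).

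PBS podocytes and PBS glomeruli also placed some sites differently. Of the 12, 2 were lower by at least 40 points in podocytes (6.64% of all) and 1 was higher (7.14%). Col4a3/Col4a4 site 9 stood at 13.5 in podocytes and 88.1 in glomeruli, Col4a1/Col4a2 site 1 at 26.3 and 68.6, and Col4a3/Col4a4 site 13 at 89.3 and 45.0. By caller p-value the steps of the collagen sites 9 and 13 were −24.7 and 14.4 points, so these rest on the choice of measure.

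**Figure D4:**
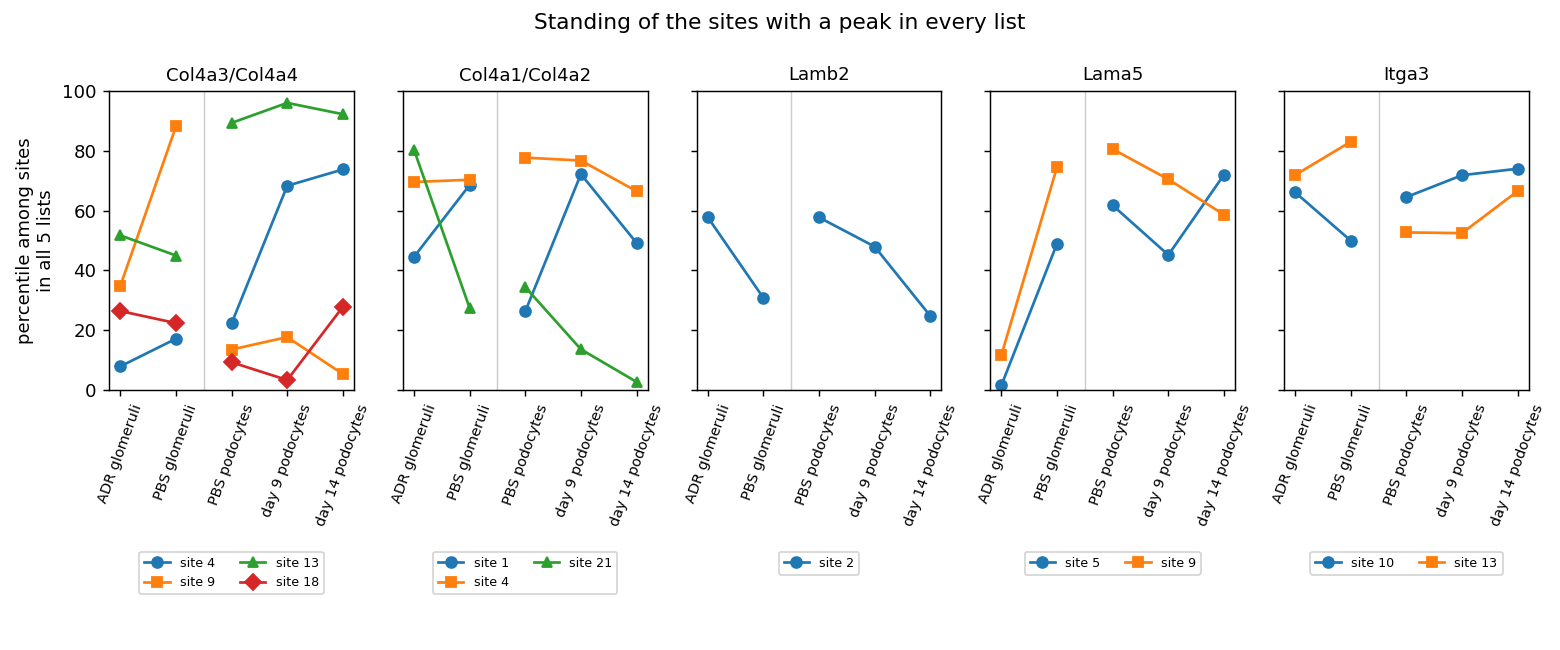
Percentile of fold enrichment (vertical axis) of each of the 12 sites with a peak in every list, among the 4666 such sites of the series, by list (horizontal axis), with 1 panel per window and a line joining the lists of 1 tissue. Both Lama5 sites are low in ADR glomeruli, at 1.63 and 11.8, and Col4a1/Col4a2 site 21 is higher in ADR glomeruli than in any other list.

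The windows decide what was counted near their ends. Just inside them, a peak of 11.4-fold enrichment in PBS podocytes lay 2.35 kb from the end of the Col4a1/Col4a2 window, and a day 9 peak of 5.02 lay 1.16 kb from the start of the Itga3 window. Just outside, the nearest peak to the end of the Lama5 window was 8.12 kb away with 2.39-fold enrichment, and that to the end of the Lamb2 window was 22.6 kb away with 23.1-fold enrichment in PBS glomeruli.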

How the data were processed

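WT1 was immunoprecipitated from mouse glomeruli and podocytes in 15 libraries, with 2 glomerular input libraries beside them, and groups were read from the sample titles. Per the submitters' processing notes the authors used Bowtie 0.12.7, MACS2 and build mm9. The sources used here do not give how libraries were combined, the control or the cutoff, and read depth was not used. Each deposited list holds, per peak, fold enrichment (a ratio over background), −log10 p, −log10 q and an integer score, all the authors' values. The score entered no result. Start, end and summit, the other deposited columns, were read from the files and are printed 1-based. Smallest −log10 q values ran from 1.31 to 2.25.

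Member peaks were those with a summit in the windows. The members and lists were chosen with earlier results of these data known. An overlap of 1 bp or more counted as shared, and shares carry 95% Wilson intervals. Named peaks were the strongest of each window and list, all sites common to the 5 lists, and the strongest peak without a match per window and direction; other sites were named after their values were seen. Alternatives were overlap of 50% of the shorter peak, summits within 200 bp, −log10 q of at least 10, lists trimmed to equal length, windows narrowed by 20 kb at each end, and ranking by caller p-value. Simulated peak lists with known overlap were used to test the code. Promoters were credited to RefSeq (GRCm38.p6). The tools were pandas 2.3.3, numpy 2.4.6, matplotlib 3.10.9 and scipy 1.17.1 under Python 3.11.15.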

Additional observations from a re-analysis of the deposited data

Results flagged for a closer look

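At 3 windows the number of peaks after ADR lay below the PBS number in glomeruli and above it in podocytes at day 9. For Col4a3/Col4a4 the ratio of ADR to PBS peaks was 0.308 in glomeruli and 1.5 in podocytes at day 9. For Lama5 the ratios were 0.889 and 1.5, and for Itga3 they were 0.737 and 1.46. The whole lists moved the same way, with 0.572 in glomeruli and 1.37 at day 9. Against that, the glomerular ratio was lower at Col4a3/Col4a4 and higher at Lama5 and Itga3. With 1 list per group the differences in direction were not tested. With the glomerular lists trimmed to equal length, the glomerular ratios were 2 at Lama5 and 1.27 at Itga3.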

How the results depend on the processing

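No paired analysis was possible because a single deposited list stands for each group, and no library could be left out for that reason. With a −log10 q of at least 10, the windows held 18 peaks in ADR glomeruli, 30 in PBS glomeruli and 27 in PBS podocytes, and 47 sites. Sites common to all 5 lists numbered 8, beside 12 without that cutoff. The share of ADR glomerular peaks with a PBS peak was then 77.8%, that of PBS podocyte peaks with a PBS glomerular peak 88.9% and the reverse 76.7%, beside 84.6%, 73.5% and 74.3% over all peaks at that q. The ratio of ADR to PBS glomerular peaks was 1.2 at Col4a1/Col4a2 and 0.25 at Lama5, beside 7087 ADR and 16265 PBS peaks in the whole lists. With both lists cut back by p-value to the shorter length, 48.9% of ADR and 70% of PBS glomerular peaks had a match, as did 65.9% of PBS podocyte peaks at day 9, 71.4% of PBS podocyte peaks at day 14 and 73.3% of day 9 peaks at day 14. Over all peaks of the trimmed lists these shares were, in the same order, 61.1%, 59.7%, 76.4%, 71.2% and 77.4%. The ratio of ADR to PBS glomerular peaks was then 0.571 at Col4a3/Col4a4, 2 at Lama5 and 1.27 at Itga3, with 16634 peaks in each whole list. The cause of these moves was not tested. Of the 50 alternatives to the shares, 42 moved by less than the counting interval. The strongest peak of a window and list was the same by caller p-value in 21 of 25 cases, and its rank was within 1.5 times in 17 of 25. The count of 47 sites at the stricter q and the window ratios under other settings were chosen after seeing the data. Peaks could not be placed against genes, and the other basement membrane genes were not run, without an mm9 annotation.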
